A study of Homo sapiens with 16 samples.

Results

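Acetylation of histone H3 at lysine 27 (H3K27ac) was mapped by chromatin immunoprecipitation and sequencing (ChIP-seq) in Toledo cells, an established human line of diffuse large B-cell lymphoma. Before harvest the cells spent 6 days either in 5 uM of TP-064, which inhibits the arginine methyltransferase CARM1, or in the solvent DMSO. The data described here are the H3K27ac peak lists, 4 of the 16 samples of the study: 2 libraries of inhibitor-treated cells (CARM1i 1 and CARM1i 2) and 2 of DMSO cells (DMSO 1 and DMSO 2). The remaining libraries map 2 other histone marks or are inputs and were not used here. The labels do not say that the libraries of a treatment came from separate cultures, so the spread between them may be technical, and all cells are of 1 line.

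H3K27ac is placed mainly by the acetyltransferases CREBBP and EP300 and marks active promoters and active enhancers, the distal elements that raise transcription of nearby genes. CARM1 methylates arginines of histone H3 and of coactivators, CREBBP and EP300 among them. The title of the study places the comparison in lymphomas with mutations of these acetyltransferases. In germinal centre B cells, from which this lymphoma arises, enhancers with H3K27ac accompany the genes of the B-cell transcription factors and of the B-cell receptor.

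The deposited lists hold a chromosome, a start and an end per peak, with no height, so presence and length are what could be compared. They held 4771 and 4595 peaks with the inhibitor, against 7885 and 4016 with DMSO. These covered 10.4 and 9.55 Mb with the inhibitor and 17.3 and 7.79 Mb with DMSO. The DMSO libraries differed 1.96-fold from each other in peak number, and the inhibitor libraries lay between them. Read depth is unknown, and a site with no peak may be one below the threshold of the peak caller. The labels put both inhibitor libraries on lane 4 and both DMSO libraries on lane 3, so the effect of treatment and that of the lane cannot be told apart. Of 10 B-cell markers, 8 had a peak at a gene end in all 4 libraries, among them PAX5, EBF1, CD79A, CD79B and MS4A1. None of 17 myeloid markers had a peak in any library. Of 20 T and NK cell markers, LCK and CD2 had a peak in some library and CD3D and CD3E in none, and the list summed to 5349 and 1615 bp with the inhibitor and 3486 and 1449 bp with DMSO. Of 17 epithelial and stromal markers, VIM and COL1A1 had a peak in some library, and the list summed to 0 and 0 bp with the inhibitor and 3374 and 946 bp with DMSO.

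The inhibitor lists held fewer H3K27ac peaks at gene ends, while the number away from them lay within the range of the DMSO lists. Within 2 kb of either end of a protein-coding gene there were 1865 and 1608 peaks with the inhibitor and 4063 and 2060 with DMSO, and the groups did not overlap. Away from gene ends there were 2906 and 2987 peaks with the inhibitor and 3822 and 1956 with DMSO, so the inhibitor libraries lay between the DMSO libraries. The log2 ratio of the means, inhibitor over DMSO, was -0.82 at gene ends and 0.03 elsewhere. Without DMSO 1 these ratios were -0.25 and 0.59, and without DMSO 2 they were -1.23 and -0.38. The gene-end share of all covered base pairs was 33.9% ± 1.86 with the inhibitor and 46.85% ± 0.246 with DMSO (SD, n = 2 each), a difference of -13 percentage points with a two-sided exact permutation p of 0.333. That is the smallest p that 2 libraries against 2 can give, over 6 assignments.

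The deficit lay at the gene ends themselves. Peaks that crossed a gene end made up 31.4% and 27.7% of the inhibitor lists and 45% and 43% of the DMSO lists. Peaks that stopped short of an end but lay within 2 kb of it made up 7.67% and 7.33% with the inhibitor and 6.56% and 8.29% with DMSO, and here the groups overlapped. Peaks more than 50 kb from any gene end made up 25% and 30.9% of the inhibitor lists and 18.4% and 19.2% of the DMSO lists. Peaks at gene ends had about the same width in both treatments, with a median of 1550 and 1492.5 bp with the inhibitor and of 1637 and 1440 bp with DMSO.

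**Figure D1:**
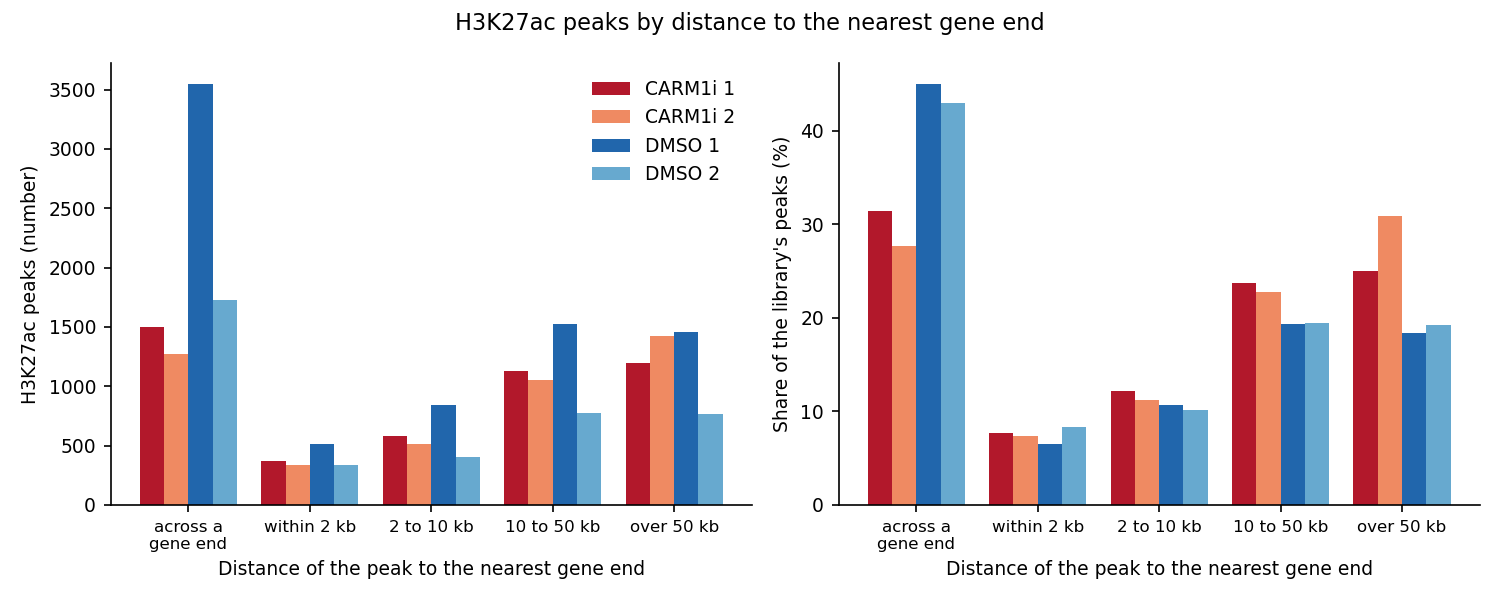
Number (left) and share in percent (right) of H3K27ac peaks by distance to the nearest gene end, 1 bar per library (red, CARM1i; blue, DMSO). Peaks across a gene end make up 31.4% and 27.7% with the inhibitor and 45% and 43% with DMSO, while beyond 2 kb the inhibitor shares are the higher ones.

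Peaks of the 4 libraries were merged into 10288 regions, and lost here means a peak in each DMSO library with none in either inhibitor library, gained the reverse, and kept a peak in all 4. Of 3319 regions with a peak in each DMSO library, 812 were lost (24.5%), and of 2946 with a peak in both inhibitor libraries, 390 were gained (13.2%). A further 1878 regions were kept. Presence depends on each library: leaving out DMSO 1, DMSO 2 or CARM1i 1 gave 1303, 3861 or 1222 lost regions, and leaving out CARM1i 1, CARM1i 2 or DMSO 1 gave 1334, 1112 or 1069 gained regions. By base pairs, 6.93 Mb was covered by both DMSO libraries, and 1.58 Mb of this (22.8%) was covered by no inhibitor library. Of this uncovered sequence, 68.1% lay in lost regions and 18.9% lay inside kept regions, where peaks were shorter or broken.

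Lost and gained regions differed in where they lay. At gene ends 28.3% of regions were lost and 5.44% gained, in gene bodies 21% were lost and 19.7% gained, and between genes 16.9% were lost and 17.5% gained. Short regions were lost most often. Regions were ranked by covered length in the DMSO library where it was lower, in 5 equal classes. The shortest class lost 50.3% of its regions and the longest 2.86%. Within a class, loss at gene ends was close to loss elsewhere. It was 52.4% at gene ends and 45.5% elsewhere in the shortest class. In the middle class, with 1457 to 1884 bp in the lower DMSO library, 23.5% at gene ends and 23.1% away from them were lost. For gain, regions were ranked by the lower of the inhibitor values. The 2 positions stood apart in every class: 8.57% at gene ends and 33.9% elsewhere in the shortest, 0% and 4.39% in the longest. These shares carry no test, since regions are not replicates.

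**Figure D2:**
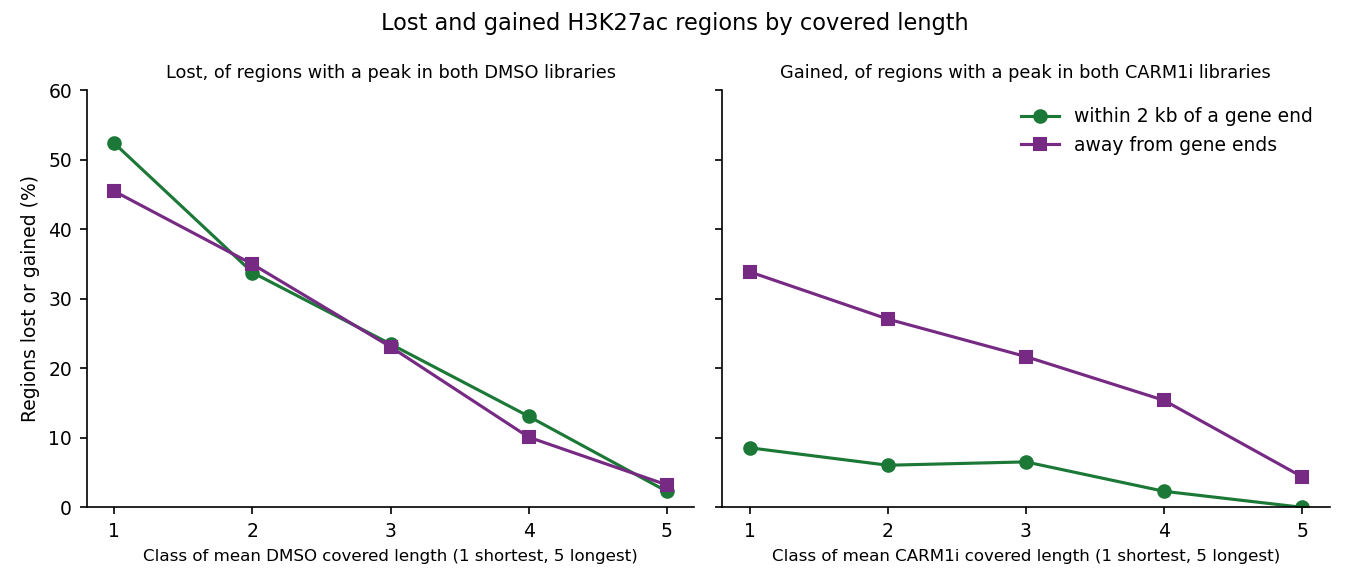
Share of regions lost (left, of those with a peak in each DMSO library) and gained (right, of those with a peak in both CARM1i libraries), in percent, in 5 classes of covered length from short to long. Loss is less frequent from the shortest to the longest class alike at gene ends and away from them, while gain is lower at gene ends in each class. Classes rank the lower covered length of the libraries in the group, not the mean that the axis names.

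The lost regions with the longest DMSO peaks lay downstream of TRAF3, which restrains the non-canonical NF-kB pathway in B cells. From chr14:102906011-102938646 (hg38), 3 lost regions followed each other among the regions with DMSO peaks in each library: the last part of TRAF3, the sequence just beyond its 3' end, and the adjoining ends of AMN and CDC42BPB. This stretch of 32.6 kb held no peak in either inhibitor library and 18896 and 16717 bp of peaks in the DMSO libraries. Upstream, inside the TRAF3 gene body, the region chr14:102896156-102904700 was kept but covered 2507 and 2598 bp with the inhibitor and 8545 and 5815 bp with DMSO. At the 2 ends of TRAF3 together, peaks covered 2372 and 1396 bp with the inhibitor and 14111 and 12113 bp with DMSO, a log2 difference of -2.84 and the lowest among kept genes whose groups did not overlap. The start of TRAF3 itself kept a peak in all 4 libraries.

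Other long lost regions lay at genes of several kinds. The region over the start of E2F2, an activator of S-phase genes, was without a peak in both inhibitor libraries and covered 6968 and 5544 bp with DMSO. The nearest inhibitor peak lay 80.2 kb away. At FCRL2, a B-cell member of the Fc receptor-like family, there was no inhibitor peak against 14324 and 3361 bp with DMSO, and a further lost region lay in the body of its neighbour FCRL1, with no inhibitor peak against 5411 and 3929 bp with DMSO. SLAMF6, a receptor of the SLAM family, had no inhibitor peak at its ends against 9157 and 4499 bp with DMSO. For SLAMF6 the state rests on the window, since it was neither lost nor kept with windows of 1 or 5 kb or at its start, and FCRL2 was not lost with 5 kb. Lost regions inside gene bodies included RPTOR, a subunit of mTOR complex 1, with 4359 and 4132 bp in the DMSO libraries alone. Others lay in MAD1L1, a spindle checkpoint gene, with 4824 and 4043 bp, and in the adaptor gene GAB1, with 4248 and 3362 bp, again in the DMSO libraries alone. ST14, a membrane protease gene, held 4061 and 3650 bp and a region 54605 bp from TARBP1 5248 and 4301 bp, both in the DMSO libraries alone. Over all lost regions, the median distance to the nearest inhibitor peak was 90.8 kb, and 7.39% had one within 5 kb.

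The longest gained regions lay mostly inside gene bodies. In PPM1H, a protein phosphatase gene, the region chr12:62916287-62923727 covered 6828 and 7008 bp with the inhibitor and held no DMSO peak. AFG2A held 4423 and 4584 bp with the inhibitor, QSOX1 4814 and 4242 bp, TMCC2 4176 and 4292 bp and MOB1B 3731 and 3634 bp, and none of these regions had a DMSO peak. Of the 10 longest gained regions by the rule used, 8 lay in gene bodies and 2 between genes, those beside RALGPS2 and COXFA4. Over all gained regions, the median distance to the nearest peak of either DMSO library was 48.8 kb, and 15.4% had one within 5 kb. To the shorter DMSO 2 list alone it was 128 kb. Runs of gained regions were few, and their values count the gained regions alone, since other regions can lie between them. Around SERINC5, 4 successive regions over 60.2 kb of chromosome 5 covered 8567 and 8386 bp with the inhibitor and 0 and 0 bp with DMSO, and around the p53 target gene ZMAT3, 3 regions over 104 kb covered 5303 and 3683 bp with the inhibitor and 0 and 0 bp with DMSO.

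Of 19974 protein-coding genes, 2329 had a peak within 2 kb of an end in both DMSO libraries, and 651 of these (28%) had none with the inhibitor. Of 1431 genes with a peak in both inhibitor libraries, 62 (4.33%) had none with DMSO. Around annotated starts alone, which were at hand for 15812 genes, 529 of 1816 were lost (29.1%) and 40 of 1075 gained (3.72%). Leaving out DMSO 2 or CARM1i 1 gave 2483 or 996 lost genes, and leaving out DMSO 1, CARM1i 2 or CARM1i 1 gave 299, 176 or 143 gained genes. Loss again followed length: 39.5% of genes with a mean DMSO covered length under 2 kb were lost, and 11.6% of the others.

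Genes of the cell cycle had the most frequent loss among the lists with 10 or more genes marked in both DMSO libraries. Of the 34 genes of DNA replication and S phase, 13 had a peak in both DMSO libraries, and 10 of these were lost against 28% of all genes. The lost genes were the transcription factors E2F2, E2F3 and E2F8, the ribonucleotide reductase subunits RRM1 and RRM2, the thymidylate synthase TYMS, the helicase subunits MCM3, MCM4 and MCM5 and the clamp loader subunit RFC3. E2F1 and CDC45 kept a peak in all 4 libraries. At E2F1 peaks covered 2991 and 2850 bp with the inhibitor and 3117 and 2586 bp with DMSO, and the groups overlapped.

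Over the whole S-phase list, peaks covered 7635 and 4083 bp with the inhibitor and 50892 and 19462 bp with DMSO, and the groups did not overlap. Over all genes the sums were 4566058 and 3871666 bp with the inhibitor and 10382693 and 4612046 bp with DMSO, which did not overlap either. RRM2 had no inhibitor peak and 3834 and 1904 bp with DMSO, and TYMS had none against 1212 and 1302 bp with DMSO. The peaks of this list were short, and among genes under 2 kb of DMSO covered length 8 of its 9 were lost, against 39.5% of all such genes. At 2 kb or more, 2 of 4 were lost, against 11.6% of all such genes. Without DMSO 2, 21 of 25 genes of the list were lost, and with peaks of at least 1000 bp 6 of 9.

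Of the 33 genes of mitosis and G2, 14 had a peak in both DMSO libraries and 10 were lost. They were the transcription factors FOXM1 and MYBL2, the kinase AURKA, the proliferation marker MKI67, the survivin gene BIRC5, the kinetochore gene CENPF, the spindle genes NUSAP1, PRC1 and KIF20A and the cyclin-dependent kinase partner CKS1B. CKS1B had no inhibitor peak and 2580 and 2530 bp with DMSO, and MKI67 had none against 1314 and 1055 bp with DMSO. Of the 4 that kept a peak, BUB1 covered 1676 and 1873 bp with the inhibitor and 3950 and 2304 bp with DMSO, and CKS2 covered 2281 and 1218 bp with the inhibitor and 4073 and 3219 bp with DMSO. In both the groups did not overlap, while for HMMR and CDC25C they did. Of all kept genes, 34.4% were shorter without overlap. Without DMSO 2, 19 of 23 genes of the list were lost, and 5 of 7 with the same number of widest peaks taken from each list. Peaks can belong to a neighbour: those of AURKA also reached CSTF1, those of FOXM1 reached RHNO1 and those of CKS1B reached SHC1. Those of NUSAP1 reached OIP5 and those of KIF20A reached BRD8. Among the lost S-phase genes, peaks of RRM1 also reached STIM1, those of MCM4 reached PRKDC and those of E2F3 reached LOC124901482. MYBL2 was not lost with a window of 5 kb, and CKS2 was not kept with 1 kb.

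**Figure D3:**
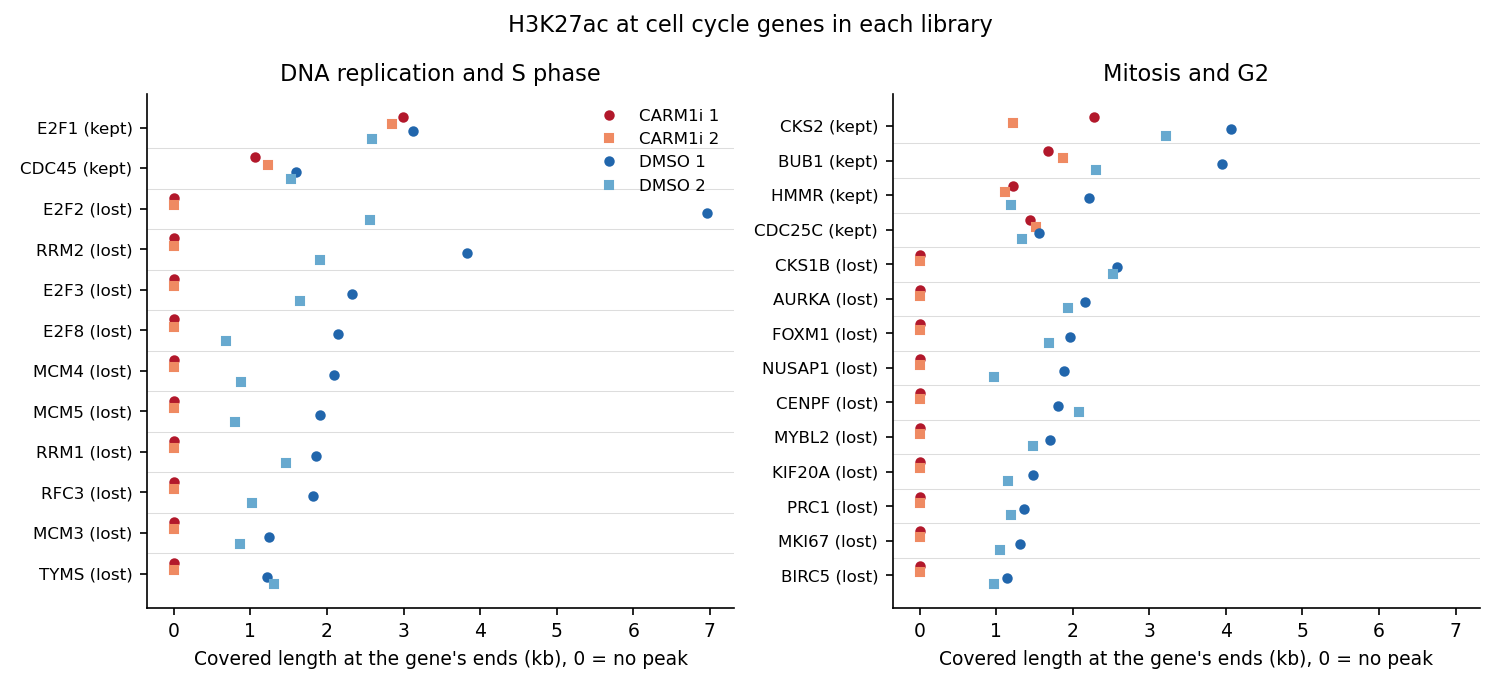
Covered length at the ends of genes of DNA replication and S phase (left) and of mitosis and G2 (right) with a peak in each DMSO library and either lost or kept, in kb, 1 point per library (red, CARM1i; blue, DMSO). The inhibitor points of the 20 lost genes sit at 0, and E2F1, CDC45, CKS2, BUB1, HMMR and CDC25C have points from all 4 libraries.

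Some promoters of the lost cell cycle genes hold short elements known from periodic genes. Of these, 6 that hold at least 2 of the elements were picked to show, after the matches were known, so that the letters can be read beside the states. MYBL2, also lost, holds no exact match to the letters listed below, and other forms of the elements were not searched. The 250 bases before the annotated start were taken from RefSeq (GRCh38.p14), and capitals mark exact matches on either strand to the E2F element (TTTCCCGC, TTTGGCGC, TTTCGCGC or TTTGCCGC), the cell cycle homology region or CHR (TTTGAA or TTCGAA) and the CCAAT box (CCAAT, read ATTGG on the other strand). GCGGGAAA is the E2F element on the other strand. An E2F element and a CCAAT box both occur in E2F3 (chr6:20401629-20401878, plus strand, which also holds a CHR), MCM3 (chr6:52284743-52284992, minus strand) and NUSAP1 (chr15:41332631-41332880, plus strand). A CHR and a CCAAT box both occur in CKS1B (chr1:154974431-154974680, plus strand), MKI67 (chr10:128126424-128126673, minus strand, where 1 of each overlap) and PRC1 (chr15:90994536-90994785, minus strand). RRM1, also lost, holds a CHR and a CCAAT box too and is not shown.
E2F3: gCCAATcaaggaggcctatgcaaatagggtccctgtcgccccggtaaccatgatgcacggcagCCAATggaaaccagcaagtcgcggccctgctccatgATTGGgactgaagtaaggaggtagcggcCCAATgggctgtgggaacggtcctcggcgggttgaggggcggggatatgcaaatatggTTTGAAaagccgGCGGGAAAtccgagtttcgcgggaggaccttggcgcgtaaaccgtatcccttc
MCM3: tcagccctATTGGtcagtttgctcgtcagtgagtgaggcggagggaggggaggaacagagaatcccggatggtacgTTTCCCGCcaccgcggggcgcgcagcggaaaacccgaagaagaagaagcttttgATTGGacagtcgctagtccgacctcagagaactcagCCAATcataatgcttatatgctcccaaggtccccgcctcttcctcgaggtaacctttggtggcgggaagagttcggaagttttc
NUSAP1: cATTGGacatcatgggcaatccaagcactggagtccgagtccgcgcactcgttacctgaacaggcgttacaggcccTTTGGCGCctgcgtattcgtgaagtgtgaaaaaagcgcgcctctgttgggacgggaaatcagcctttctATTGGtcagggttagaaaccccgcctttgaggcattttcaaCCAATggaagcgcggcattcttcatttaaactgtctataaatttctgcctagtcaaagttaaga
CKS1B: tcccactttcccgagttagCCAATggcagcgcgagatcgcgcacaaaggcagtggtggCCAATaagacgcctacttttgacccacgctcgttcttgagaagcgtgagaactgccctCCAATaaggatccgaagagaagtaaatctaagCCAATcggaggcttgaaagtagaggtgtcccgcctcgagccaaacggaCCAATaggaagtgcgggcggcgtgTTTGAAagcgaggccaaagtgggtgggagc
MKI67: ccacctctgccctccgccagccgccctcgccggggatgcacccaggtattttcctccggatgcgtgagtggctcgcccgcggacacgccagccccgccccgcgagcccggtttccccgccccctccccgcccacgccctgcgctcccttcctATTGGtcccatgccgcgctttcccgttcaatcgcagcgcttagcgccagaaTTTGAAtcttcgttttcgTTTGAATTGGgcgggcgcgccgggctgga
PRC1: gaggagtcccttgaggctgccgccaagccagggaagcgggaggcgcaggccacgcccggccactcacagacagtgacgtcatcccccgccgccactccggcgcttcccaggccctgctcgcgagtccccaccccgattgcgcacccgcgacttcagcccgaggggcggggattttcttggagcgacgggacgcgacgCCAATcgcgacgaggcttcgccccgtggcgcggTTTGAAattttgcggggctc

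In each of these 6 genes the start lay under a peak in both DMSO libraries and under none with the inhibitor. The counts that follow are over promoters from 250 bases before to 50 bases after the start, longer than the sequences shown. Of 15 lost promoters from the cell cycle lists, 7 held an E2F element (46.7%), 7 a CHR (46.7%) and 11 a CCAAT box (73.3%). Of the 5 kept promoters of these lists, 1 held an E2F element (20%), 2 a CHR (40%) and 4 a CCAAT box (80%). Over all 529 promoters lost at the start, 9.83% held an E2F element, against 5.75% of 869 kept promoters and 4.45% of all 15812. A CHR was found in 17.8% of lost, 12% of kept and 13.5% of all promoters. For the CCAAT box the shares were 42.5% of lost, 35.7% of kept and 36.3% of all promoters. The ETS core (CCGGAAG, both strands) was found in 22.1% of lost, 15.5% of kept and 14.2% of all promoters, and the cAMP response element (TGACGTCA) in 4.35%, 1.96% and 2.59%. Base composition was alike in lost and kept promoters, with a median G+C of 66% and 66.3%. Among the 40 gained promoters no E2F element or CHR was found. These counts describe letters and carry no test.

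Most B-cell transcription factor genes kept their peaks. Of 17 genes of B-cell transcription factors with a peak in each DMSO library, 12 were kept and 2 were lost, SPI1 and BCL6. Among all 2329 genes with such peaks, 1130 were kept. At BCL6, the repressor of the germinal centre reaction, there was no inhibitor peak against 1315 and 972 bp with DMSO. SPI1, a partner factor at B-cell enhancers, had none against 2445 and 1626 bp with DMSO. PAX5, which holds B-cell identity, covered 7234 and 10439 bp with the inhibitor and 7583 and 6076 bp with DMSO, and MEF2D covered 17202 and 18066 bp with the inhibitor and 19227 and 17752 bp with DMSO. In both the groups overlapped. BCL11A covered 3505 and 2050 bp with the inhibitor and 7656 and 5714 bp with DMSO, with no overlap. Among all kept genes, 34.4% were shorter in this way. Of these 17 genes, 16 covered 2 kb or more with DMSO, a length at which 11.6% of all genes were lost. Without CARM1i 1, 4 of the 17 were lost, and with peaks of at least 1000 bp 1 of 14.

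Of 16 genes of the B-cell receptor and surface with a peak in each DMSO library, 13 were kept and 3 were lost (18.8%), among them FCRL2 and SLAMF6. All 16 covered 2 kb or more with DMSO, a length at which 11.6% of all genes were lost. The receptor chain CD79B covered 7658 and 5924 bp with the inhibitor and 11601 and 8887 bp with DMSO, without overlap. FCRL5 covered 4835 and 6886 bp with the inhibitor and 9887 and 10209 bp with DMSO, also without overlap. Among all kept genes, 34.4% were shorter in this way. MS4A1, which encodes CD20, covered 3964 and 4354 bp with the inhibitor and 5988 and 2930 bp with DMSO, and the kinase gene SYK covered 5162 and 5029 bp with the inhibitor and 5122 and 3715 bp with DMSO. For MS4A1 and SYK the groups overlapped. Among germinal centre genes, 3 of 8 were lost (37.5%, against 28% of all genes), namely BCL6, ELL3 and NEIL1, while EZH2, BCL7A, CXCR4 and IRAG2 were kept. EZH2, the H3K27 methyltransferase, covered 1524 and 1582 bp with the inhibitor and 2641 and 2583 bp with DMSO, with no overlap. Of 7 plasma cell genes XBP1 was lost, with no inhibitor peak against 1739 and 1204 bp with DMSO.

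**Figure D4:**
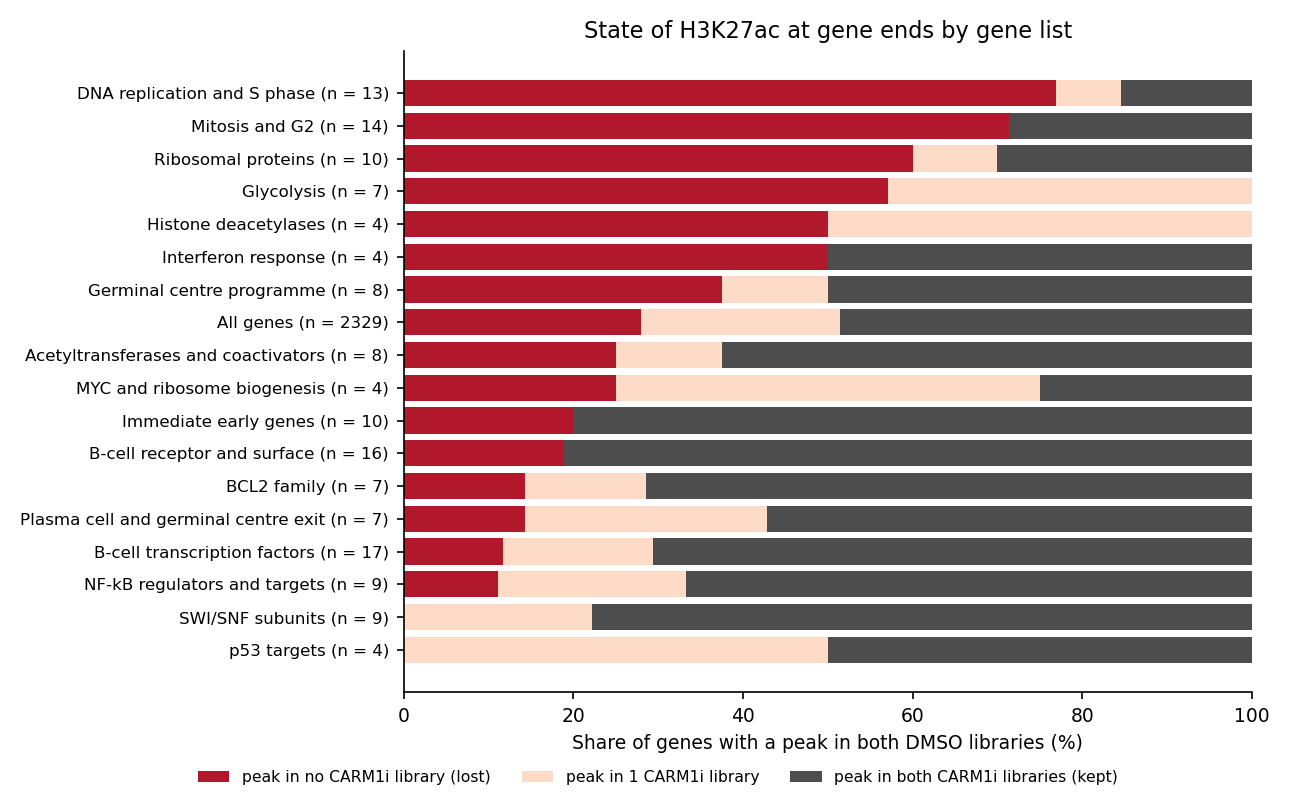
State of H3K27ac with the inhibitor at genes with a peak in each DMSO library, in percent of those genes (n beside each list), for all genes and for lists with at least 4 such genes. Loss covers 76.9% and 71.4% of the cell cycle lists, 28% of all genes and 11.8% of the B-cell transcription factors. The lists differ in covered length: 39.5% of all genes under 2 kb with DMSO were lost, and 11.6% of the others.

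Housekeeping lists were also lost often, on few genes. Of 10 ribosomal protein genes with a peak in each DMSO library 6 were lost, RPL7A, RPL22, RPL32, RPS14, RPS15 and RPS25. Of 7 glycolysis genes none was kept: GAPDH, ENO1, HK2 and SLC2A1 were lost, and LDHA, PFKM and PFKL had a peak in 1 inhibitor library. GAPDH had no inhibitor peak against 3019 and 2385 bp with DMSO, and its peaks also reached NCAPD2. The peaks of these 2 lists were short, and among genes under 2 kb with DMSO 6 of 8 ribosomal and 3 of 4 glycolysis genes were lost, against 39.5% of all such genes.

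Among the enzymes of the acetylation and methylation system, CREBBP lost its peak and EP300 did not. CREBBP had no inhibitor peak against 1660 and 783 bp with DMSO over its start. EP300 covered 1282 and 1785 bp with the inhibitor and 2569 and 1627 bp with DMSO, and the groups overlapped. Of 8 acetyltransferase and coactivator genes 2 were lost (25%, against 28% of all genes). BRD9 was the other lost one, and CRTC2, KAT5, KAT7 and CREB1 were kept. By mean DMSO covered length, CREBBP lay under 2 kb and EP300 above it. In this list 2 of 4 genes under 2 kb were lost, against 39.5% of all such genes. At 2 kb or more 0 of 4 were lost, against 11.6% of all such genes. CARM1 itself covered 0 and 809 bp with the inhibitor and 0 and 0 bp with DMSO. PRMT1, the main enzyme of asymmetric arginine dimethylation, had no inhibitor peak against 2463 and 1388 bp with DMSO, and PRMT3 had none against 1951 and 1665 bp with DMSO. Of 4 histone deacetylase genes HDAC7 and HDAC10 were lost (50%), and none was kept. HDAC7 was not lost with a window of 1 kb, nor HDAC10 at its start. Of 9 genes of SWI/SNF subunits, the chromatin remodeller, none was lost (0%) and 7 were kept, ARID1A, ARID1B, ARID2, BCL7A, SMARCC1, SMARCE1 and SS18.

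Counts in the lists of signalling and stress genes were small and are to be read against the 28% of all genes that were lost. MYC covered 2840 and 3078 bp with the inhibitor and 3491 and 4363 bp with DMSO, without overlap. Its log2 difference was -0.40 (limma adjusted p = 0.683), and with a window of 1 kb it was not kept. Of all kept genes, 34.4% were shorter without overlap. CIITA, the master regulator of MHC class II genes, covered 0 and 1740 bp with the inhibitor and 2708 and 0 bp with DMSO, and CDKN1A had no peak in any library. Of 9 NF-kB genes BCL3 was lost (11.1%) and 6 were kept, and BCL3 itself was kept with a window of 5 kb. Of 4 interferon response genes IRF1 and DTX3L were lost (50%), and SOCS1 and IRF2 were kept, but DTX3L was not lost with a window of 1 kb or at its start. Of 7 BCL2 family genes 1 was lost (14.3%): BCL2L11, which encodes the death protein BIM, with no inhibitor peak against 1945 and 916 bp with DMSO. The kept ones numbered 5, among them BCL2 and MCL1. BIK, another pro-death member, was gained with 2789 and 1874 bp with the inhibitor and 0 and 0 bp with DMSO, in a window that also reaches MCAT. Of 10 immediate early genes IER5 and ZFP36L1 were lost (20%) and 8 were kept. Among the kept ones BTG1, an anti-proliferative gene, covered 1066 and 1156 bp with the inhibitor and 2989 and 2234 bp with DMSO, and the mRNA decay factor ZFP36 covered 1391 and 908 bp with the inhibitor and 3423 and 1727 bp with DMSO, neither with overlap. Of 4 p53 targets and 2 circadian clock genes none was lost, and of 4 genes of MYC and ribosome biogenesis NOP56 was (25%).

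Few genes gained a peak. RGS2, a regulator of G-protein signalling, covered 2294 and 2877 bp with the inhibitor and 0 and 0 bp with DMSO, and the peaks lay over its start. HBEGF, a growth factor of the EGF family, covered 3469 and 2189 bp with the inhibitor and 0 and 0 bp with DMSO, and LAG3, an inhibitory receptor of lymphocytes, covered 2722 and 3223 bp with the inhibitor and 0 and 0 bp with DMSO. ZBTB7B, ENTPD4, PITPNC1, PKN3, ARL3 and OR6C70 completed the 10 longest with PER2. With a window of 5 kb LAG3 and PITPNC1 had peaks in all 4 libraries, and PKN3 was not gained. With 1 kb PITPNC1, ZBTB7B and PKN3 were not gained. The RGS2 promoter (chr1:192808789-192809038, plus strand) is shown for contrast with the lost ones, with its CCAAT box in capitals and no E2F element or CHR.
RGS2: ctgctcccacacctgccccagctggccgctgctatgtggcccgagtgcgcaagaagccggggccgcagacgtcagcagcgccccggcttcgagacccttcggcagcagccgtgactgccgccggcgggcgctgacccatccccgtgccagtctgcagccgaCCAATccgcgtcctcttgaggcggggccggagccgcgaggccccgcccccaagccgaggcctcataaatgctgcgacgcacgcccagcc

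PER2, a repressor of the circadian clock, showed both changes at different places. At its gene ends it covered 4240 and 2856 bp with the inhibitor and 0 and 0 bp with DMSO, with peaks that also reached its neighbour HES6. With a window of 5 kb it was kept, and with 1 kb it was neither gained nor kept. At its annotated start, which lies inside the annotated gene, it covered 0 and 0 bp with the inhibitor and 1568 and 1534 bp with DMSO. ZMAT3 covered 1038 and 1175 bp with the inhibitor and 0 and 0 bp with DMSO, over its start.

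In the 1878 kept regions, covered length was compared as log2 base pairs with limma. With Benjamini-Hochberg adjustment over all kept regions, 0 regions had a lower and 0 a higher covered length at an adjusted p under 0.05 (0% each), and at an unadjusted p under 0.05 there were 110 lower and 37 higher. By range, 525 regions (28%) were shorter with the inhibitor, both libraries below both DMSO libraries, and 165 (8.79%) longer. At gene ends 34.4% were shorter and 5.6% longer, and away from gene ends 21.5% were shorter and 12% longer. The median log2 difference was -0.18 at gene ends and -0.03 away from them. The libraries differed in length as a whole: the median kept region covered 2458 and 2314 bp with the inhibitor and 3053 and 2120 bp with DMSO. When these medians were centred in each library, 9 regions (0.479%) passed as lower and 7 (0.373%) as higher. Leaving out DMSO 1 gave 8 lower and 100 higher regions, and leaving out CARM1i 1 gave 2 lower and 0 higher, so the calls rest on how the libraries are scaled and on single libraries.

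The 9 shorter regions after centring all lay at gene ends or in gene bodies, which held 50.4% and 26.6% of all kept regions. The longest fall was in NSMCE1, a gene of the SMC5/6 complex, where chr16:27225034-27235062 covered 3208 and 1043 bp with the inhibitor and 9552 and 8628 bp with DMSO, a log2 difference of -2.31 (limma adjusted p = 0.46 without centring and 0.0401 with it). In IKZF3, which encodes the B-cell factor Aiolos, a region in the gene body covered 1283 and 1533 bp with the inhibitor and 5051 and 4101 bp with DMSO (log2 difference -1.70, centred adjusted p = 0.0295 by limma). MID1IP1, PLEKHA2, EPS15L1, the TRAF3 gene body, C3orf52 with GCSAM, SPTBN1 and IGF2BP3 made up the rest, with log2 differences of -1.08 to -1.60. In each the inhibitor libraries lay below both DMSO libraries.

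Of the 7 longer regions, 4 lay between genes, where 23% of all kept regions lay. OXNAD1 had the largest difference, in its gene body, with 4681 and 4630 bp with the inhibitor and 1771 and 1317 bp with DMSO (log2 difference 1.61, limma adjusted p = 0.46 without centring and 0.0242 with it). SYTL2 covered 4272 and 4402 bp in its gene body with the inhibitor and 2301 and 1130 bp with DMSO. ASXL1, a Polycomb-associated chromatin regulator, was the only one of the 7 at a gene end and among the 10 longest kept regions, with 18791 and 18048 bp with the inhibitor and 12601 and 9403 bp with DMSO (log2 difference 0.76, centred adjusted p = 0.0401 by limma). The others lay 180204 bp from PIK3R1, 66519 bp from S1PR3, 382385 bp from TXNL1 and 1392561 bp from KCNT2.

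**Figure D5:**
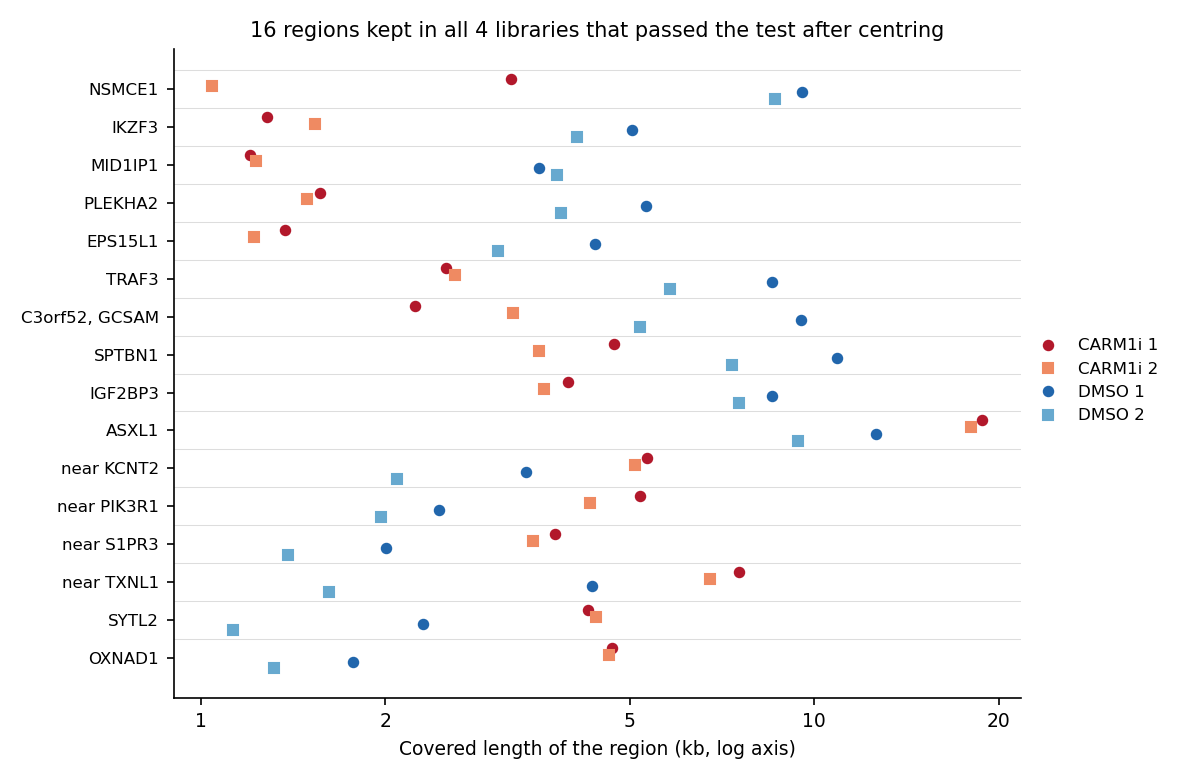
Covered length in kb (log axis) of the 16 kept regions that passed limma's test after the library medians were centred, 1 point per library (red, CARM1i; blue, DMSO). From NSMCE1 to IGF2BP3 both inhibitor points lie left of both DMSO points, and from ASXL1 to OXNAD1 they lie right of them. None of the 16 passed without centring.

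The 10 longest kept regions did not move in 1 direction. Beside IGLL5, at the immunoglobulin lambda locus, the domain chr22:22917998-22947986 covered 29473 and 26974 bp with the inhibitor and 29657 and 28092 bp with DMSO, a log2 difference of -0.03. RUBCNL covered 20434 and 21407 bp with the inhibitor and 25801 and 19909 bp with DMSO. RCSD1 covered 13647 and 10732 bp with the inhibitor and 21254 and 17112 bp with DMSO, and DTX1, a regulator of Notch signalling, covered 13936 and 12272 bp with the inhibitor and 17977 and 17091 bp with DMSO. In RCSD1 and DTX1 both inhibitor libraries lay below both DMSO libraries, with log2 differences of -0.66 and -0.42 and a centred adjusted p by limma of 0.108 and 0.4. ASXL1, described above, lay above both. Of 29 kept regions with a mean covered length over 10 kb, 4 (13.8%) were shorter in both inhibitor libraries and 3 (10.3%) longer, against 28% and 8.79% of all kept regions.

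At the 1130 genes with a peak in all 4 libraries, 389 (34.4%) were shorter with the inhibitor and 60 (5.31%) longer, with a median log2 difference of -0.21. By limma 0 were lower and 0 higher after adjustment (0% each), with 92 lower and 12 higher at an unadjusted p under 0.05. With centring 3 (0.265%) were lower and 0 (0%) higher: TRAF3, CD81 and KIF22. Leaving out CARM1i 1, CARM1i 2 or DMSO 2 gave 4, 1 or 1 lower genes, and leaving out DMSO 1 gave 0 lower and 9 higher. KIF22, a kinesin of mitotic chromosomes, covered 1325 and 1028 bp with the inhibitor and 4609 and 4204 bp with DMSO. Peaks of KIF22 also reached MAZ, and around its annotated start alone KIF22 was lost. CD81, a co-receptor of the B-cell receptor, covered 2756 and 4523 bp with the inhibitor and 22315 and 14411 bp with DMSO in the peaks that touch its ends, but 16545 and 16586 bp with the inhibitor and 23268 and 16474 bp with DMSO over the whole regions, so its long domain held gaps. FMNL1 was alike: its peaks covered 3234 and 1359 bp with the inhibitor and 8125 and 8038 bp with DMSO, while its whole regions covered 7882 and 6469 bp with the inhibitor and 8125 and 8038 bp with DMSO.

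Among longer genes, RAG2, a recombinase of early lymphocytes, covered 5745 and 5895 bp with the inhibitor and 2342 and 2210 bp with DMSO, a log2 difference of 1.36 with a limma adjusted p of 0.228 without centring and 0.0506 with it. Over whole regions it covered 5745 and 5895 bp with the inhibitor and 4716 and 2210 bp with DMSO, and the groups still did not overlap. QRSL1 covered 4852 and 4396 bp with the inhibitor and 3102 and 850 bp with DMSO. AMBP and ZBTB33 had log2 differences of 1.38 and 1.21 by peaks and of 0.83 and 0.54 over whole regions. MBD2, a reader of methylated DNA, had 1.20 by peaks and -0.28 over whole regions, so its direction depends on how broken peaks are counted. Peaks of RAG2 also reached IFTAP, those of QRSL1 reached RTN4IP1, those of AMBP reached ZNF618 and those of ZBTB33 reached TMEM255A. No library had a peak over the annotated start of AMBP.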

How the data were processed

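The submitters' processing notes name Bowtie 1.1.2, MACS 1.4.2 and hg38. Peak threshold, read filters and any use of the inputs are not stated in these sources. The authors deposited 1 list for each library with 3 columns (chromosome, start, end), which were called library by library.

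From these coordinates, peaks that overlapped or touched were merged into regions. A gene's covered length is the summed length of the peaks that touch a window of 2 kb on either side of either end of a protein-coding gene in the RefSeq table (GRCh38.p14, 19974 genes). For 15812 of these the promoter table gave a start. Covered lengths in kept regions and genes were compared by limma 3.58.1 (R 4.3.3, empirical Bayes with trend) on log2 bp, and library values by exact permutation. The code was tested on simulated data. Python 3.11.15, numpy 2.4.6 and pandas 2.3.3 were used.

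The genes and regions named are the 10 lost, 10 gained, 5 shortest and 5 longest relative to DMSO, the 10 longest kept regions, list members and 8 genes named in any case; a representative part is described, and a gene is not reported here. The regions and genes that passed the test after centring are named too and were chosen after their values were seen, as was the split of genes at 2 kb of covered length. The members and the 22 lists were chosen with earlier results of these data known. The alternatives were leaving out each library, equal list lengths, peaks of at least 1000 bp, merging within 1 kb, windows of 1 and 5 kb, at least 500 bp in the window, annotated starts only, a replicate block and centred library medians. Whole merged regions at genes were added after seeing the data.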

Additional observations from a re-analysis of the deposited data

How the results depend on the processing

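The share of peaks and of covered base pairs at gene ends stayed lower with the inhibitor under each alternative run, with differences of -16.4 to -12.3 and -14.3 to -11.6 percentage points when 1 library was left out. The log2 ratio of peak number ranged from -0.75 to 0.22 and that of covered length from -0.79 to 0.36, both turning positive without DMSO 1. At gene ends the ratio of peak number ranged from -1.23 to -0.25, and away from them from -0.38, without DMSO 2, to 0.59. The difference of the median width ranged from -42 to 172 bp and was -114 bp with equal list lengths. With 1 library left out, lost regions ranged from 1034 to 3861, gained regions from 405 to 1334, lost sequence from 2.03 to 8.42 Mb, gained sequence from 1.01 to 2.66 Mb, lost genes from 758 to 2483 and gained genes from 64 to 299. Each of these counts is higher than with all libraries because 1 library fewer has to carry or lack the peak. Lost genes ranged from 10 to 21 in the S-phase list, from 10 to 19 in the mitosis list and from 2 to 4 among B-cell transcription factors. Equal list lengths gave 463 lost regions, 339 lost genes, 105 gained genes and 5 lost mitosis genes, and annotated starts only gave 40 gained genes and 1 lost B-cell factor. Peaks of at least 1000 bp gave 6 lost S-phase genes and 1 lost B-cell factor. The cause of these differences was not tested. By limma, kept regions with lower covered length numbered 0 to 8 and with higher 0 to 100 when 1 library was left out, and kept genes 0 to 4 and 0 to 9. A group left with 1 library was assumed to vary like the other. Centred medians gave 9 lower and 7 higher regions and 3 lower genes. The fit with the replicate number as a block called 0 regions and 0 genes in either direction, and deviations of same-numbered libraries correlated at 0.04, so the numbers are not taken to pair the libraries. Of 152 alternatives over 22 results, 110 kept the direction or stayed within 1.5 times the value given in the report. Equal list length fixes the total peak number, so it gives no ratio of totals; at gene ends it gave -0.44 and away from them 0.31. Depth is unknown, so no site can be called free of the mark.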

Other observations

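Lost regions were spread over all chromosomes, from 15.7% of regions with a peak in both DMSO libraries on chromosome 21 to 38.4% on chromosome 22. The Jaccard index of covered base pairs was 51.4% between the inhibitor libraries, 38.2% between the DMSO libraries and 34.4% to 38.9% across treatments. Lists of unequal length cannot reach a high index, so it does not rank how well libraries agree. The DMSO lists shared 6.93 Mb of the 7.79 Mb in DMSO 2, and the inhibitor lists 6.78 Mb of the 9.55 Mb in CARM1i 2. On chromosome 11, 4 successive lost regions over 61 kb, from EML3 to UQCC3, covered 0 and 0 bp with the inhibitor and 6617 and 5190 bp with DMSO. On chromosome 22, 3 successive gained regions over 14.9 kb around TNFRSF13C, which encodes the BAFF receptor, and CENPM covered 5561 and 4452 bp with the inhibitor and 0 and 0 bp with DMSO. This stretch lies inside a run of 3 lost regions over 720 kb, so a run can have other regions between its own. The values of a run count its own regions alone, and their 0 values follow from the definition of lost and gained. At RASSF5 and MAPKAPK2 on chromosome 1, 3 gained regions over 125 kb covered 7261 and 6671 bp with the inhibitor and 0 and 0 bp with DMSO. These values carry no test.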
